A study of Mus musculus with 4 samples.

Results

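Collagens are the main structural proteins of the extracellular matrix. The collagen gene family was taken here as every gene of the deposited table whose symbol is Col, a number, the letter a and a number and nothing more, which gave 44 genes of 24062. Fibrillar collagens made up 11 of them, basement membrane collagens 6 and FACIT collagens 9. The other 18 comprised 6 beaded filament collagens, 1 anchoring fibril collagen, 3 short-chain network collagens, 4 transmembrane collagens, 2 multiplexins and 2 that were placed in none of these groups. Each of the 44 genes had an unbroken stretch of at least 23 glycine-led coding units, described below. The longest stretch was 216 to 344 units in the fibrillar genes and at most 113 in any other member.

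RNA was sequenced from sciatic nerves of 4-month-old C57BL/6 mice, with 1 library for each of 4 genotypes. WT is labelled with the strain name alone. PKO is P2RY14-/-, a loss of the UDP-sugar receptor P2RY14. NF1 is Nf1fl/fl with Dhh Cre, in which the RAS brake neurofibromin is deleted where the desert hedgehog promoter drives Cre, that is in the Schwann cell lineage, and its source label calls it a repeat. PKO-NF1 carries the P2RY14-/- and the Nf1fl/fl; Dhh Cre alleles together. The labels do not give the number of animals in a library, their sex or whether WT carried a floxed allele. In whole nerve, fewer cells of a type and less RNA per cell cannot be told apart.

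In peripheral nerve, fibrillar collagens form the bundles of the endoneurium, perineurium and epineurium, and fibroblasts are their main source. Basement membrane collagen, the type IV network, surrounds every Schwann cell, perineurial cell and vessel. FACIT collagens sit on fibril surfaces and link fibrils to their surroundings. Chains assemble as triple helices, either of the same chain or of chains from different genes, so the ratio between chain genes is followed as well as their level.

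A collagen helix needs glycine at a fixed spacing, and every glycine codon is GGN, which makes these transcripts rich in G and C. The first 90 bases of the longest unbroken stretch are printed for 5 members that the results turn on, read from the coding sequences of GENCODE M21 on GRCm38, 5′ to 3′ on the coding strand. Capitals mark the GGN codon that opens each 9-base unit. The stretches show the repeat that the members share and how the letter after GG differs between them. Codons are counted from the start codon.

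Col1a1: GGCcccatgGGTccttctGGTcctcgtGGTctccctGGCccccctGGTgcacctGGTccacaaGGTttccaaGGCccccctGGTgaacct

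Col3a1: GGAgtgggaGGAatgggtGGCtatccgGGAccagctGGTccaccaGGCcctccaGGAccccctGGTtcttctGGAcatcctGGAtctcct

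Col5a3: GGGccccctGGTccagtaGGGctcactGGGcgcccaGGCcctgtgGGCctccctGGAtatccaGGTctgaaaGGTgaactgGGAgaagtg

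Col27a1: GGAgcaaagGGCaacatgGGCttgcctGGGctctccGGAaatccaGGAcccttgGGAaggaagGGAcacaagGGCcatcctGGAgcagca

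Col4a1: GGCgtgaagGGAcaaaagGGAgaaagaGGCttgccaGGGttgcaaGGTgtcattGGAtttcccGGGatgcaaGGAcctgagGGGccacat

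These stretches run from codon 168 to 197 of Col1a1, 164 to 193 of Col3a1, 478 to 507 of Col5a3, 673 to 702 of Col27a1 and 43 to 72 of Col4a1. The full unbroken run was 338 units in Col1a1, 344 in Col3a1, 337 in Col5a3 and 217 in Col27a1. It was 40 units in Col4a1, whose helix is known for its many interruptions. Codon choice set the fibrillar genes apart from each other. GC at the last codon position was 28.4% in Col3a1, 42.3% in Col1a1, 53.1% in Col5a3 and 56.9% in Col27a1. GGT made up 39.9% of GGN codons in Col3a1 and 50.6% in Col1a1, against 16.0% in Col27a1.

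Values are counts scaled to library size (CPM), scaled with the TMM factors of edgeR so that libraries can be compared for 1 gene. Order between genes was taken from TPM, which also divide by the length of all exons of a gene. The libraries held 14111201 counts for WT, 20362685 for PKO, 19064779 for NF1 and 17771101 for PKO-NF1. A count of 0 allows up to 3 counts, which came to between 0.153 and 0.183 CPM. No genotype had another library, so each ratio is between single libraries, and its 95% interval holds counting error alone. Where both P2RY14-/- or both Nf1-mutant libraries lay above or below both others, the share of all genes doing so was not counted. Such a split only describes these libraries. Reads that PCR copied without molecular identifiers are not independent molecules.

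The libraries differed in more than genotype. P2ry14 was at 37.5 CPM for WT, 10.9 for PKO, 65.4 for NF1 and 10.5 for PKO-NF1, while Nf1 was at 72.5, 41.1, 63.6 and 20.4 CPM in the same order, so gene totals set NF1 little apart from WT and Nf1 was lower in PKO, where it is intact. All 18 skeletal muscle genes were at least 2-fold higher in NF1 than WT, and together they took 6.10% of the NF1 counts against at most 0.124% elsewhere. Ribosomal protein genes took 3.64% of counts for WT, 14.5% for PKO, 6.75% for NF1 and 11.1% for PKO-NF1. Xist, expressed from the inactive X of females, and the Y-linked Ddx3y were both present in WT and PKO, while NF1 had 0 counts of Ddx3y and PKO-NF1 had 9 of Xist. Xist was at 2020 CPM in NF1, and Ddx3y at 51.2 CPM in PKO-NF1. In PKO-NF1 against NF1, sex and genotype therefore cannot be told apart for any gene. Markers of nerve were present in every library, none of the 13 Schwann cell genes being at 0, and their summed level ran from 8907 CPM in NF1 to 33327 in PKO. Cartilage, bone and tendon genes summed to at most 24.3 CPM and epidermal genes to at most 10.3 CPM.

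Collagen transcripts made up 1.27% of all counts for WT, 1.12% for PKO, 0.738% for NF1 and 0.857% for PKO-NF1. Col1a1, Col1a2 and Col3a1, the chains of types I and III, supplied 51.0% of collagen counts for WT, 64.3% for PKO, 46.5% for NF1 and 66.4% for PKO-NF1. Both P2RY14-/- libraries thus had the larger share of these major fibrillar chains. The FACIT share of collagen counts went the other way, at 4.08% in WT and 4.74% in NF1 against 2.32% in PKO and 2.0% in PKO-NF1.

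**Figure D1:**
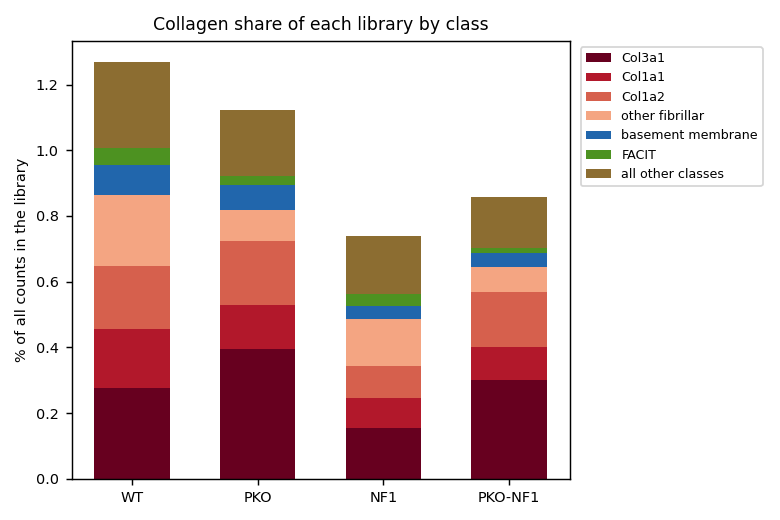
Share of all counts (%, vertical axis) taken by collagen genes in each of the 4 libraries, stacked by class with the types I and III chains drawn apart. The stack is 1.27% in WT and 0.738% in NF1, and the Col3a1 block is largest in PKO.

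By mean TPM over the 4 libraries the order was Col3a1 (812 TPM), Col1a1 (576), Col1a2 (378), Col6a1 (256), Col15a1 (236), Col5a3 (200), Col4a1 (143), Col5a1 (125), Col5a2 (101) and Col4a2 (96.1). With the longest transcript in place of all exons, Col6a2 took the place of Col4a2 among the first 10. Col10a1, the collagen of growth plate cartilage, had 0 counts in all 4 libraries. Col25a1, a transmembrane collagen, had 0 counts for WT, 7 for PKO, 6 for NF1 and 0 for PKO-NF1. The other 42 reached 1 CPM in at least 1 library and are the members compared below.

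**Figure D2:**
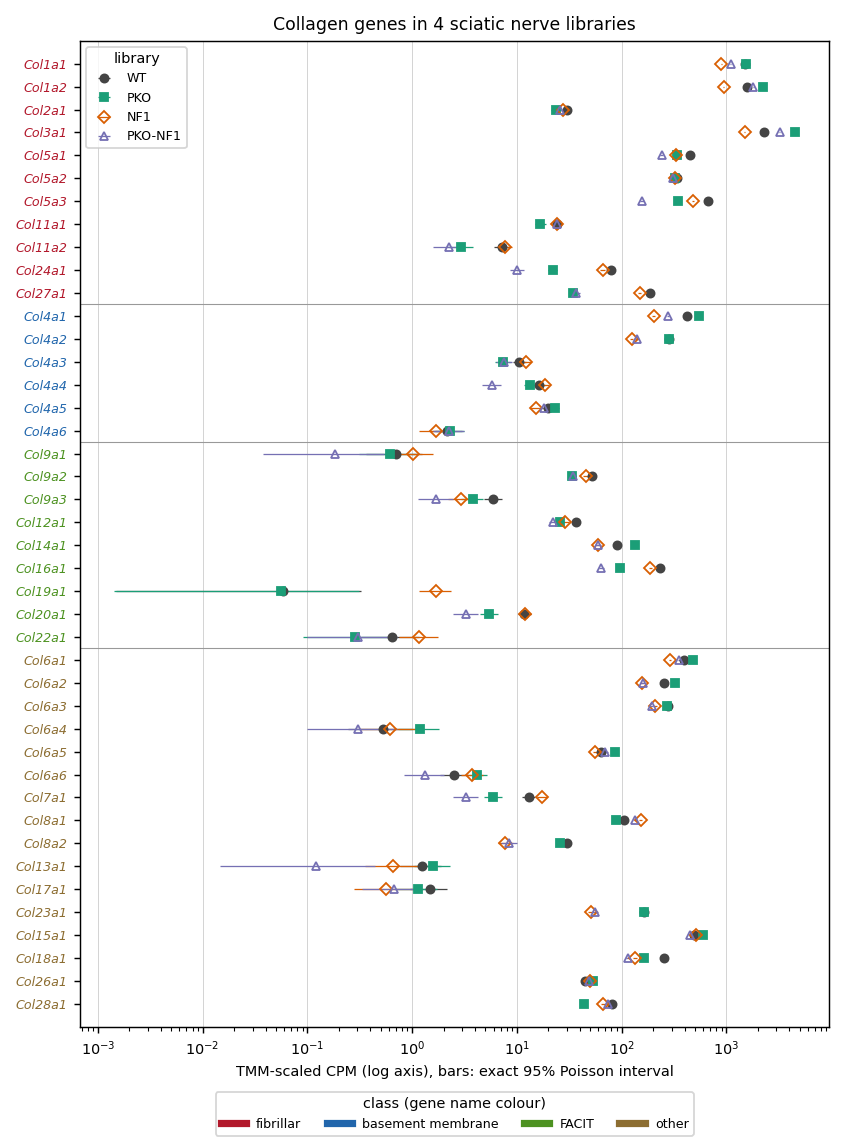
Level of 42 collagen genes (TMM-scaled CPM, log axis) in the 4 libraries, grouped by class, with exact 95% Poisson intervals as bars and symbols for libraries. Levels run from Col3a1 at 4527 CPM in PKO to genes with a few counts, and the PKO-NF1 value of Col19a1 (0 counts) is not drawn.

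Among the fibrillar genes, Col3a1 (ENSMUSG00000026043, chr1:45311538-45349706, plus strand) was at 2286 CPM for WT, 4527 for PKO, 1493 for NF1 and 3243 for PKO-NF1. In CPM, both P2RY14-/- libraries were above both libraries with intact P2ry14. In TPM, Col3a1 was at 990 for WT, 1003 for PKO, 461 for NF1 and 792 for PKO-NF1, so PKO-NF1 was then below WT. Col1a1, which with Col1a2 forms type I collagen, was at 1500.2, 1549, 898 and 1103 CPM in the same order, and Col1a2 at 1589, 2225, 939.9 and 1815 CPM. NF1 was the lowest library in CPM for all 3 genes. Type V chains nucleate the fibrils. Col5a1 was at 453, 341, 327 and 242 CPM, and Col5a2 differed by no more than 1.10-fold over the 4 libraries, at 308 to 339 CPM. Col5a3, a type V chain that Schwann cells are known to secrete, varied far more, at 674 CPM for WT, 346 for PKO, 476 for NF1 and 157 for PKO-NF1.

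The remaining fibrillar genes ranked from 20 to 34 among the 44 by mean TPM. Col2a1, the cartilage fibril chain, stayed between 23.6 and 30.2 CPM, and Col11a1 between 16.8 and 24.2 CPM. Col11a2, its type XI partner, was at 7.29 CPM for WT, 2.93 for PKO, 7.74 for NF1 and 2.25 for PKO-NF1. Col24a1 (ENSMUSG00000028197, chr3:145292472-145552011, plus strand) and Col27a1 (ENSMUSG00000045672, chr4:63214004-63334991, plus strand) encode the fibrillar chains with shorter helices. Col24a1 was at 79.5, 22.1, 66.0 and 10.04 CPM, and Col27a1 at 186, 34.4, 148 and 36.9 CPM. For Col11a2, Col24a1 and Col27a1 both P2RY14-/- libraries were below both others, and how many of all genes did so was not counted.

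Col4a1 and Col4a2 encode the common type IV network of vessel and Schwann cell basement membranes. Col4a1 was at 425 CPM for WT, 543 for PKO, 202 for NF1 and 278 for PKO-NF1, and Col4a2 at 285, 285, 125 and 140.0 CPM. Both libraries with Nf1fl/fl; Dhh Cre were below both without it. The chains of specialised basement membranes were scarcer, with mean TPM of 8.36 for Col4a5, 3.97 for Col4a4, 2.91 for Col4a3 and 0.777 for Col4a6 against 96.1 for Col4a2. Col4a3 was at 7.45 to 12.1 CPM, Col4a4 at 16.4, 13.3, 18.5 and 5.78 CPM, Col4a5 at 15.1 to 22.9 CPM and Col4a6 at 1.68 to 2.31 CPM. Col4a5 and Col4a6 lie on chromosome X, and the libraries differed in Xist and Ddx3y as given above.

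Of the FACIT genes, Col16a1 was the most abundant, at 233 CPM for WT, 97.1 for PKO, 187 for NF1 and 64.2 for PKO-NF1. Col14a1, a fibril-surface collagen of fibroblasts, was at 89.9, 133, 59.2 and 59.2 CPM. Col9a2 ran from 33.9 to 52.0 CPM and Col12a1 from 22.3 to 36.6 CPM. Col20a1 was at 11.8, 5.47, 12.01 and 3.29 CPM, the same order of genotypes as Col16a1 but for WT and NF1. Col9a3 was at 5.94, 3.78, 2.90 and 1.70 CPM; 6.07% of its exon bases overlap Tcfl5 on the opposite strand, and no source used here says whether counting used strand. Col9a1, Col19a1 and Col22a1 reached at most 1.68 CPM. Col19a1 had 1 count for WT, 1 for PKO, 33 for NF1 and 0 for PKO-NF1, and Col22a1, known from the muscle-tendon junction, had 11, 5, 23 and 5. The library with the most Col19a1 and Col22a1 was the one with the skeletal muscle transcripts, and their part in it was not tested.

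Type VI collagen forms beaded filaments around cells. Col6a1 was at 397, 484, 291 and 357 CPM in WT, PKO, NF1 and PKO-NF1, Col6a2 at 257, 326, 155 and 160 CPM, and Col6a3 at 278, 274, 210 and 193 CPM. All 3 were lower in both Nf1-mutant libraries than in both others. Col6a5 ran from 56.1 to 86.6 CPM, Col6a6 from 1.34 to 4.18 CPM and Col6a4 from 5 to 21 counts. Col7a1, the anchoring fibril collagen of epithelia, was at 12.9, 5.92, 17.4 and 3.29 CPM.

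Type VIII collagen is a short-chain network collagen of vessel walls. Col8a1 was at 106 CPM for WT, 89.3 for PKO, 153 for NF1 and 135 for PKO-NF1, and Col8a2 (ENSMUSG00000056174, chr4:126286793-126314330, plus strand) at 29.8, 26.1, 7.79 and 8.46 CPM. Both Nf1-mutant libraries were above both others for Col8a1 and below them for Col8a2. Col23a1 (ENSMUSG00000063564, chr11:51289920-51583918, plus strand), a transmembrane collagen, was at 164 and 162 CPM in WT and PKO and at 51.4 and 56.1 CPM in NF1 and PKO-NF1. Col13a1 and Col17a1, also transmembrane, reached at most 1.58 CPM. The multiplexins carry heparan or chondroitin sulphate in basement membrane zones. Col15a1 ran from 447 to 596 CPM, and Col18a1, the precursor of endostatin, was at 253, 165, 134 and 114 CPM. Col26a1 stayed between 45.2 and 52.8 CPM. Col28a1, a collagen known from peripheral nerve, was at 80.2, 43.7, 66.7 and 74.7 CPM, lowest in PKO.

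A member was called higher or lower in a comparison where the ratio reached 2-fold and its 95% interval excluded 1. For Nf1 status, NF1 was compared with WT and PKO-NF1 with PKO. These pairs share no library. In NF1 against WT, 6 of 42 members were lower and 1 was higher, where 6.09% of all 14682 genes were lower and 10.6% higher. In PKO-NF1 against PKO, 12 of 42 were lower and 0 higher, where 9.95% of 14638 genes were lower and 5.11% higher. The median log2 ratio was −0.32 over the members and 0.01 over all genes in the former pair, and −0.49 and −0.01 in the latter. Both family medians changed sign when the length and GC trends described below were removed.

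Col4a2, Col9a3, Col8a2 and Col23a1 were lower in both Nf1 pairs, which is 4 of the 6 members lower in the former and 4 of the 12 lower in the latter, where 2.58% of all genes were lower in both. Col8a2 was 3.83-fold lower in NF1 than WT (3.19 to 4.62), and in PKO-NF1 it was 3.08-fold below PKO (2.54 to 3.75). Col23a1 was 3.20-fold lower (2.97 to 3.44) and 2.89-fold lower (2.68 to 3.11). For both genes both Nf1-mutant libraries were below both others, a split whose share over all genes was not counted. Col4a2 was 2.28-fold (2.17 to 2.39) and 2.03-fold lower (1.93 to 2.14), and Col4a1 was 2.11-fold lower (2.03 to 2.19) and 1.95-fold lower (1.89 to 2.02), the latter short of the threshold. Col9a3 was 2.05-fold lower (1.46 to 2.88) and 2.22-fold lower (1.41 to 3.58).

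Of the 12 endothelial marker genes, 7 were lower in NF1 than WT and 6 in PKO-NF1 than PKO, where 6.09% and 9.95% of all genes were. These counts were 7 and 2 with the trends removed. Their summed level was 822 CPM for WT, 1002 for PKO, 344 for NF1 and 597 for PKO-NF1, with none of the 12 at 0 in any library. Nerve fibroblast markers summed to 6130 CPM for WT, 9199 for PKO, 2881 for NF1 and 5964 for PKO-NF1, of which 1 of 11 was lower in NF1 than WT and 0 in PKO-NF1 than PKO. Gsn, Dpt and Mfap5 were the most abundant in this sum, and the list's median log2 ratios were −0.26 and −0.29 in these pairs. Adipocyte markers summed to 7006 CPM for WT, 18502 for PKO, 3879 for NF1 and 13198 for PKO-NF1, with 8 of 10 lower in the former pair and 4 of 10 in the latter (7 and 2 with the trends removed). Cfd, Fabp4 and Adipoq were the most abundant of these, and the list's medians were −1.41 and −0.79. All 3 sums were lower in the Nf1-mutant library of each pair, as Col4a1 and Col4a2 were. This was not particular to these lists. The summed Schwann cell, perineurial, and pericyte and smooth muscle markers were lower there too, as were the scarce cartilage, bone and tendon genes. Macrophage, skeletal muscle and epidermal sums were higher in the Nf1-mutant library of each pair. The part of any of these lists in the collagen values was not tested.

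The other calls were made in 1 Nf1 pair. In NF1 against WT, Col17a1, with 11 counts against 25, was 2.62-fold lower (1.25 to 5.91) and Col19a1 28.6-fold higher (4.78 to 1162), from 33 counts against 1. In PKO-NF1 against PKO, Col5a3 and Col24a1 were each 2.20-fold lower (2.10 to 2.31 and 1.83 to 2.65), Col14a1 2.24-fold (2.08 to 2.42), Col6a2 2.05-fold (1.95 to 2.14) and Col4a4 2.29-fold (1.80 to 2.94). Col6a6 was 3.12-fold lower (1.92 to 5.27), Col6a4 3.89-fold (1.43 to 13.2) and Col13a1 13.0-fold (3.27 to 112), the last with 2 counts in PKO-NF1. Whether the ratios of the Nf1 pairs differ was not tested, since that difference is the only degree of freedom left by the model below. No member was called in opposite directions.

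For P2ry14 status, PKO was compared with WT and PKO-NF1 with NF1. Each of these pairs shares a library with each Nf1 pair. In PKO against WT, 6 of 42 members were lower and 0 higher, where 5.11% of 14661 genes were lower and 10.2% higher. In PKO-NF1 against NF1, 13 of 42 were lower and 1 higher, where 14% of 14684 genes were lower and 7.81% higher. The medians of the members were −0.19 in both pairs, against −0.06 and −0.02 over all genes, and both changed sign with the trends removed. FACIT genes had the lowest class median, −0.62 in PKO against WT and −1.54 in PKO-NF1 against NF1. These stayed below 0 with the trends removed, at −0.30 and −0.70. Both medians include the scarce genes Col9a1, Col19a1 and Col22a1, which had 3, 0 and 5 counts in PKO-NF1. A median without these scarce genes was not computed.

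The 6 members lower in PKO than WT were all among the 13 lower in PKO-NF1 than NF1, where 2.8% of all genes were lower in both: Col11a2, Col24a1 and Col27a1 of the fibrillar class, the FACIT genes Col16a1 and Col20a1, and Col7a1. Col27a1 was 5.41-fold lower in PKO than WT (4.96 to 5.91), and in PKO-NF1 it was 4.02-fold below NF1 (3.69 to 4.40). Col24a1 was 3.60-fold lower (3.22 to 4.04) and 6.57-fold lower (5.58 to 7.77). Both genes stayed below 0 in both pairs with the trends removed, though Col27a1 then missed 2-fold in the latter. Col16a1 was 2.39-fold lower (2.26 to 2.54) and 2.91-fold lower (2.72 to 3.12), Col20a1 2.15-fold (1.68 to 2.77) and 3.65-fold (2.71 to 5.01), Col7a1 2.18-fold (1.72 to 2.78) and 5.28-fold (3.95 to 7.17), and Col11a2 2.48-fold (1.78 to 3.5) and 3.44-fold (2.39 to 5.06).

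Col3a1 was the only member called higher with P2ry14 loss, at 2.17-fold in PKO-NF1 against NF1 (2.14 to 2.20), and it was 1.98-fold higher in PKO than WT (1.96 to 2.0). Scaling by total counts took it below 2-fold in PKO-NF1 against NF1. As a share of all counts, Col3a1 was 0.276% for WT, 0.394% for PKO, 0.154% for NF1 and 0.300% for PKO-NF1. In TPM, WT (990) and PKO (1003) were nearly level, so the size of the PKO against WT ratio depended on the scaling. Of the nerve fibroblast markers 3 of 11 were higher in PKO than WT and 4 of 11 in PKO-NF1 than NF1, where 10.2% and 7.81% of all genes were. Removing the trends left 0 and 1, while Col3a1 was then called higher in both pairs. The median log2 ratio of these markers moved little, from 0.58 to 0.54 in PKO against WT and from 0.64 to 0.69 in PKO-NF1 against NF1. Over all genes the medians with the trends removed were −0.06 and −0.01. Of the adipocyte markers 4 of 10 and 6 of 10 were higher (2 and 5 with the trends removed), and their summed levels, given above, stood in the same order over the 4 libraries as Col3a1. The part of either list in the Col3a1 values was not tested. Col5a3 was 1.95-fold lower in PKO than WT (1.89 to 2.01), and in PKO-NF1 it was 3.03-fold below NF1 (2.90 to 3.17).

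In PKO-NF1 against NF1 alone, Col4a4 was 3.20-fold lower (2.54 to 4.05) and Col6a6 2.81-fold (1.73 to 4.76). Scarce members made up the rest: Col9a1 was 5.58-fold lower (1.65 to 29.3) with 3 counts in PKO-NF1, Col22a1 3.85-fold (1.43 to 13.0), Col13a1 5.44-fold (1.23 to 49.6) and Col19a1 at least 9.20-fold, set against the limit of 3 counts. All 18 skeletal muscle genes were lower in PKO-NF1 than NF1, and their part in the Col19a1 and Col22a1 values was not tested. No member was called in opposite directions in the P2ry14 pairs.

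**Figure D3:**
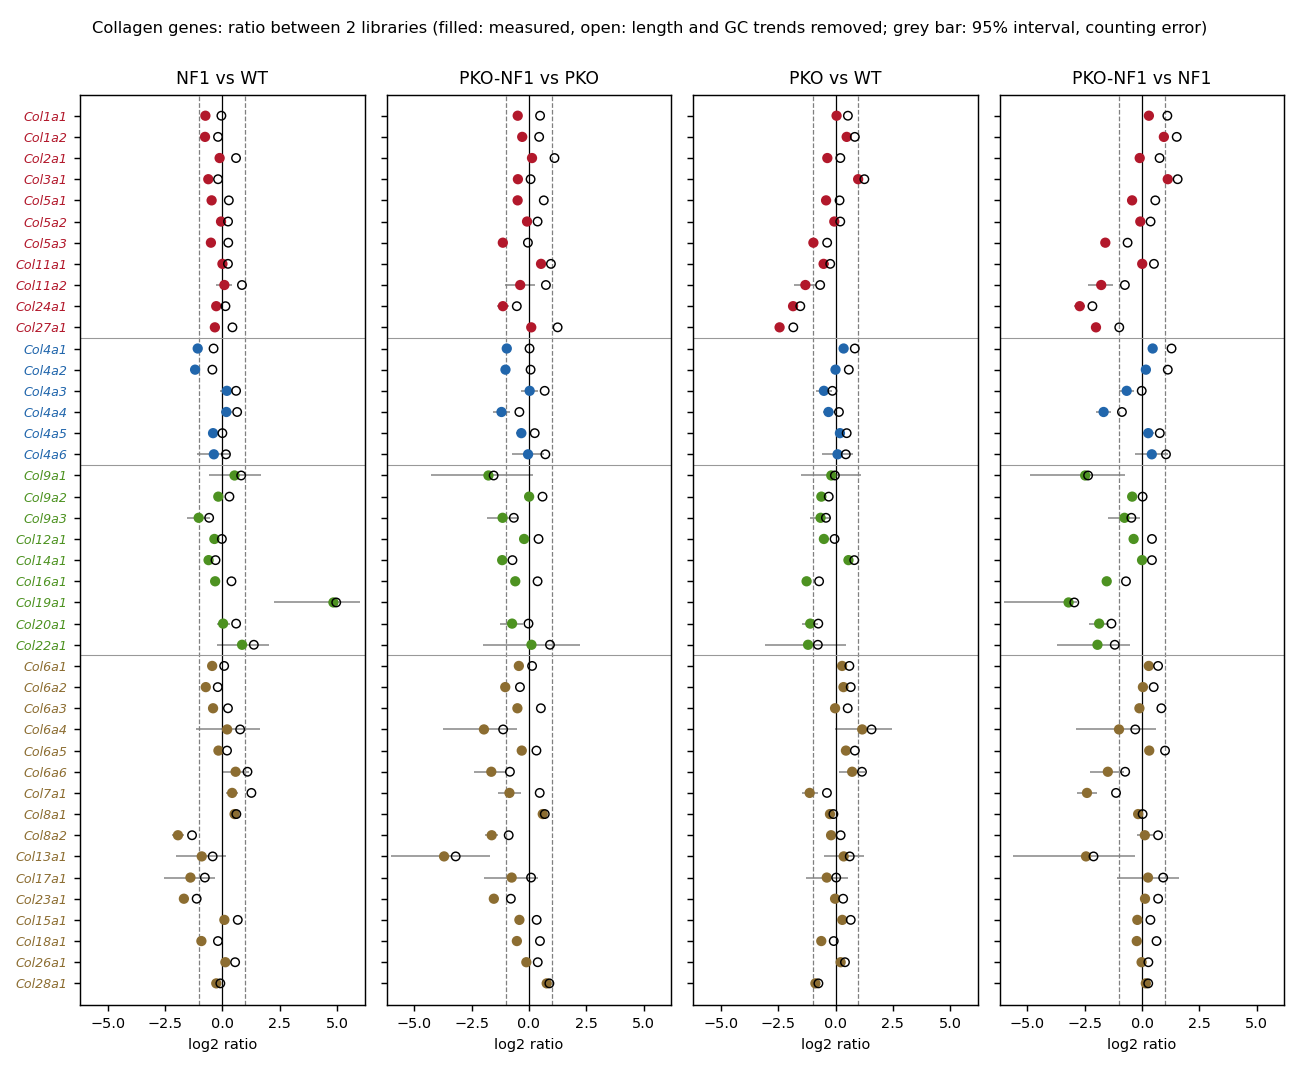
log2 ratio between libraries (horizontal axis) of 42 collagen genes in the 4 comparisons, filled as measured, open with length and GC trends removed, with 95% intervals for counting error as grey bars cut at ±6 and the 2-fold limits dashed; Col19a1 is not drawn where both libraries had 3 counts or fewer. Open circles sit to the right of filled ones for nearly every gene, and the medians go from −0.32 to 0.24 in NF1 against WT and from −0.49 to 0.36 in PKO-NF1 against PKO.

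Collagen transcripts are long and rich in GC. The median longest transcript was 5989 bases over the 42 members against 3352 over all 14579 genes with an annotation, and the median GC content was 55.4% against 49.7%. Above the median of all genes were 38 of 42 members for length and 34 of 42 for GC, and 34 and 24 were in the highest 25%. Members ran from 2781 bases (Col26a1) to 11511 bases (Col12a1) and from 46.8% GC (Col8a1) to 62.9% (Col11a2).

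The ratios of all genes moved with both properties. In PKO against WT the shortest 10% of genes had a median log2 ratio of 1.05 and the longest 10% −0.48, and in PKO-NF1 against NF1 these were 0.61 and −0.72. In NF1 against WT the 10% lowest in GC had a median of 0.47 and the highest −0.41, and in PKO-NF1 against PKO these were 0.54 and −0.60. The P2ry14 pairs thus followed transcript length and the Nf1 pairs followed GC content more steeply. Across all genes, Spearman's rho with length was −0.50 in PKO against WT and −0.45 in PKO-NF1 against NF1. With GC it was −0.38 in NF1 against WT and −0.47 in PKO-NF1 against PKO. Among the 42 members, rho with length was nearer 0 in the P2ry14 pairs, at −0.07 in PKO against WT and −0.09 in PKO-NF1 against NF1, so the slope with length over all genes was hardly present within the family. It was 0.22 in NF1 against WT and 0.04 in PKO-NF1 against PKO, where all genes had −0.26 and −0.24. With GC the members had −0.35 in NF1 against WT and −0.24 in PKO-NF1 against PKO. The trends subtracted next are those of all genes and not of the members. These are correlations across genes of the same libraries, and genes are not independent replicates.

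**Figure D4:**
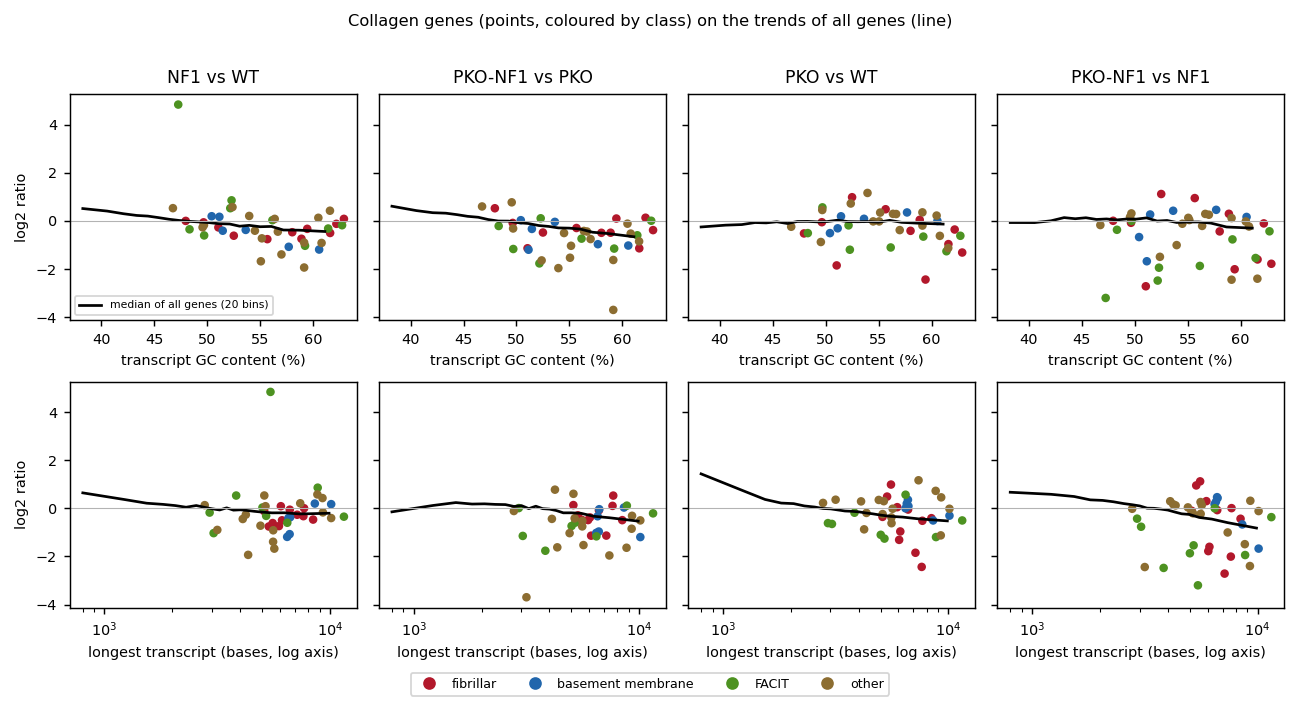
log2 ratio of 42 collagen genes (points, coloured by class) against transcript GC content (upper row) and longest transcript length (lower row, log axis) in the 4 comparisons, with the median of all genes outside the muscle genes in 20 bins as the line. Most collagen points lie toward the long, high-GC side, and the line is below 0 at its right end in each panel.

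Splines with 4 degrees of freedom in log10 length and in GC, fitted over all genes outside the muscle genes, were subtracted from the ratios. The members' medians then became 0.24 in NF1 against WT, 0.36 in PKO-NF1 against PKO, 0.19 in PKO against WT and 0.37 in PKO-NF1 against NF1. Members below 0 went from 28 to 16 of 42, from 33 to 13, from 27 to 17 and from 27 to 16. A direction for the family as a whole therefore depended on this step. Whether the trends arose in the RNA, the libraries or the cells was not tested.

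With the trends removed, 2 members were lower in NF1 than WT, Col8a2 (log2 ratio −1.32) and Col23a1 (−1.12), where 4.34% of all genes were lower. Both stayed below 0 but short of 2-fold in PKO-NF1 against PKO, at −0.88 and −0.79. Higher in NF1 than WT were Col19a1, Col22a1, Col6a6 and Col7a1, where 7.75% of genes were higher. Of these only Col19a1 was called as measured. In PKO-NF1 against PKO, Col2a1 (1.11) and Col27a1 (1.25) were higher and Col13a1 was lower, where 3.26% and 4.51% of genes were. Col4a2 went from −1.02 to 0.07 in that pair and Col4a1 from −0.97 to 0.02, so neither was then lower there.

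In PKO against WT, Col24a1 (−1.53) and Col27a1 (−1.84) stayed lower, and Col3a1 (1.26), Col6a4 and Col6a6 were higher, where 5.01% and 5.56% of genes were. As measured, no member was called higher in that pair. In PKO-NF1 against NF1, Col24a1 (−2.16), Col7a1 (−1.14), Col9a1, Col19a1 and Col20a1 stayed lower and Col27a1 was at −0.99, where 10.4% of genes were lower. Higher in that pair were Col1a1 (1.10), Col1a2 (1.51), Col3a1 (1.55), Col4a1 (1.28), Col4a2 (1.12), Col4a6 and Col6a5, where 5.36% of genes were higher. Of these only Col3a1 was called as measured. Col1a1 was then at 1.23-fold, Col1a2 at 1.93-fold, Col4a1 at 1.38-fold and Col4a2 at 1.12-fold. With the trends removed, Col24a1 was called lower in both P2ry14 pairs, where 2.37% of all genes were, and Col3a1 higher in both, where 1.14% were. In both Nf1 pairs 0 members were then called lower, where 0.826% of all genes were.

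Ratios between chains within a library do not depend on library scaling. Per base of exon, the Col8a1 to Col8a2 ratio was 2.03 in WT (95% interval 1.84 to 2.24) and 1.96 in PKO (1.77 to 2.18), against 11.2 in NF1 (9.54 to 13.3) and 9.18 in PKO-NF1 (7.73 to 11.0). Of the 7 chain ratios set out for the analysis it spanned the widest range, 5.72-fold. Col8a2 transcripts are richer in GC than those of Col8a1, at 59.1% against 46.8%.

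The Col3a1 to Col1a1 ratio, examined after its values had been seen, was 1.02 in WT and 1.11 in NF1 against 1.95 in PKO and 1.97 in PKO-NF1. Col1a1 to Col1a2, the chains of the type I helix, was 1.79 in WT and 1.81 in NF1 against 1.32 in PKO and 1.15 in PKO-NF1. With the longest transcript as length these became 0.852, 0.861, 0.628 and 0.548, so whether Col1a1 exceeded Col1a2 depended on the length used, while the order of libraries did not. Type I and III chain proportions thus split the libraries by P2ry14 status. Col1a1 transcripts have 58.9% GC, those of Col1a2 55.7% and those of Col3a1 52.5%.

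Col5a1 to Col5a2 was 1.51 for WT, 1.18 for PKO, 1.14 for NF1 and 0.888 for PKO-NF1. Col6a1 to Col6a2 was 2.94, 2.82, 3.56 and 4.25, and Col6a3 to Col6a1 was 0.256, 0.207, 0.263 and 0.198. The latter was lower in both P2RY14-/- libraries, and the former higher in both Nf1-mutant libraries.

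**Figure D5:**
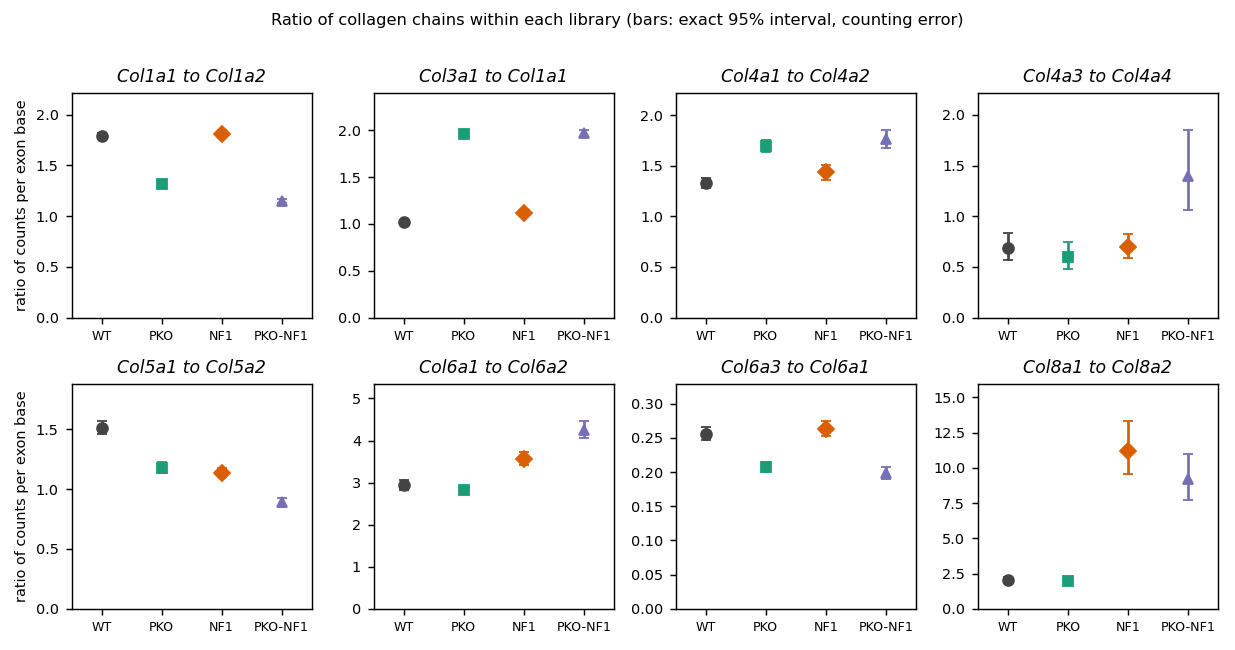
Ratio of counts per exon base between 2 chain genes (vertical axes from 0) in each library, with exact 95% intervals for counting error as bars. Col8a1 to Col8a2 is near 2 in WT and PKO and above 9 in NF1 and PKO-NF1, and Col3a1 to Col1a1 is near 1 in WT and NF1 and near 2 in PKO and PKO-NF1.

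Type IV genes lie head to head in pairs that share a promoter region. The annotated transcripts of Col4a1 (minus strand) and Col4a2 (plus strand) on chromosome 8 overlap by 22 bases, those of Col4a4 and Col4a3 on chromosome 1 lie 71 bases apart, and those of Col4a6 and Col4a5 on chromosome X lie 1308 bases apart. Col4a1 to Col4a2 was 1.32 for WT, 1.69 for PKO, 1.43 for NF1 and 1.76 for PKO-NF1. Col4a3 to Col4a4 was 0.687 (0.566 to 0.831), 0.598 (0.480 to 0.743) and 0.698 (0.590 to 0.824) in WT, PKO and NF1, and 1.40 (1.06 to 1.85) in PKO-NF1. The interval of PKO-NF1 lay above the other 3, and Col4a4 was the chain that was low there. The bases between that pair are printed because both genes start from them, from RefSeq's promoter table on GRCm38.p6, minus strand, chr1:82586850-82586920. They read 5′ to 3′ from the Col4a3 side to the Col4a4 side, and the label below names the pair, not that direction. No letter is in capitals, since neither motif searched occurs in them.

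Col4a4 to Col4a3: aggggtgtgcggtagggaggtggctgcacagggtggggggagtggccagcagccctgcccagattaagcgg

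Promoter windows of 300 bases, from 250 before to 50 after a start, were found for 35 of the 44 members, 38 windows in all. GGGCGG, the GC box, occurred on either strand in 23 of the 38 (60.5%), against 35.7% of 32851 promoters in the table. The Col4a1 and Col4a2 windows share 78 bases that hold a GGGCGG, so the windows are not independent. These shares were not adjusted for the GC content of the windows, which was 74.0% for Col4a1 and 73.7% for Col4a2. CCAAT occurred in 13 of 38 (34.2%), against 37.4%. On the other strand CCAAT reads ATTGG, whose last 2 letters can also open a GGGCGG. A match is a run of letters and not a bound site.

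Over all 4 libraries, edgeR's quasi-likelihood test was run with Nf1 status and P2ry14 status as additive terms. The single degree of freedom left is the interaction, so the p-values measure each term against non-additivity, with no animal-to-animal variation in them. It tested 14088 genes, 38 members among them. The model had no term for length or GC, so its member counts for both terms carry the trends described above. For the Nf1 term, 0 genes passed an adjusted p of 0.05 (2946 did so before adjustment, and DESeq2's Wald test called 282). Among members, 0 were higher and 8 lower at the unadjusted threshold, where 8.23% and 12.7% of genes were: Col8a2 (log2 −1.78), Col23a1 (−1.60), Col4a2 (−1.11), Col9a3 (−1.09), Col4a1 (−1.02), Col14a1 (−0.88), Col6a2 (−0.88) and Col18a1 (−0.72). Their smallest adjusted p was 0.169, in the edgeR test.

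For the P2ry14 term, 7 genes passed the adjusted threshold, 0.0497% of those tested, and 0 members (7 members did so before adjustment, and DESeq2's Wald test called 6). At the unadjusted threshold 0 members were higher and 7 lower, where 11.6% and 13.5% of genes were: Col24a1 (log2 −2.28), Col27a1 (−2.22), Col7a1 (−1.75), Col11a2 (−1.54), Col20a1 (−1.48), Col16a1 (−1.40) and Col5a3 (−1.28). The smallest adjusted p of a member was 0.143.

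New collagen chains are hydroxylated, folded, trimmed and crosslinked by a shared set of enzymes. Of 33 such genes 32 were measured. In NF1 against WT 1 was higher and 5 lower, where 10.6% and 6.09% of all genes were, and in PKO-NF1 against PKO 1 was higher and 3 lower, where 5.11% and 9.95% were. In PKO against WT 2 were higher and 2 lower (10.2% and 5.11% of all genes), and in PKO-NF1 against NF1 3 were higher and 1 lower (7.81% and 14%). Thus 3 of 32 lower in PKO-NF1 against PKO is close to the share of all genes. Their medians were −0.41, −0.12, −0.05 and 0.26, in that order, against 0.01, −0.01, −0.06 and −0.02 over all genes. With the trends removed, 0 were higher and 2 lower in NF1 against WT, 1 and 1 in PKO-NF1 against PKO, 3 and 2 in PKO against WT, and 4 and 0 in PKO-NF1 against NF1. The medians then became −0.25, 0.06, 0.09 and 0.44.

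The 3 most abundant per length were Serpinh1, the collagen chaperone HSP47, P4hb, a subunit of prolyl hydroxylase, and Ppib, a folding isomerase. Serpinh1 was at 491 CPM for WT, 646 for PKO, 308 for NF1 and 662 for PKO-NF1, and was 2.15-fold higher in PKO-NF1 than NF1 (2.08 to 2.22). It was lowest in NF1, as were Col1a1, Col1a2 and Col3a1. Ppib was at 206, 484, 275 and 504 CPM, 2.36-fold higher in PKO than WT (2.26 to 2.45). P4hb was not called in any pair, at 373 to 646 CPM. Pcolce2, which enhances removal of the procollagen tail, was 2.15-fold higher in PKO than WT (1.98 to 2.34) and 2.31-fold higher in PKO-NF1 than NF1 (2.12 to 2.53), and P4ha1, a prolyl hydroxylase, was 2.03-fold higher in the latter pair (1.90 to 2.17). The calls of Serpinh1, Ppib, Pcolce2 and P4ha1 held with the trends removed.

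Lox, which crosslinks collagen, was at 205 CPM for WT, 142 for PKO, 89.6 for NF1 and 155 for PKO-NF1, 2.29-fold lower in NF1 than WT (2.16 to 2.42). Its relative Loxl1 was 2.31-fold lower in PKO-NF1 than PKO (2.13 to 2.51), which went from a log2 ratio of −1.21 to −0.61 with the trends removed, no longer called. Plod3, a lysyl hydroxylase, was 2.12-fold lower in NF1 than WT (1.93 to 2.33), and this also missed the threshold with the trends removed, at −0.62. Tll1, a procollagen proteinase, was lower in both Nf1 pairs, 2.83-fold (2.13 to 3.80) and 2.18-fold (1.69 to 2.82), from levels of 3.51 to 11.8 CPM. Adamts14, which trims the amino end of procollagen, was lowest in PKO-NF1, at 14.4 CPM against 53.5 in WT, 32.6 in PKO and 47.2 in NF1. Leprel1, the prolyl 3-hydroxylase now called P3h2, was 2.04-fold lower in NF1 than WT (1.77 to 2.37) and 2.12-fold lower in PKO than WT (1.82 to 2.47). P4ha3 was 2.42-fold lower in PKO than WT (1.84 to 3.21). Higher in an Nf1 pair were Tmem38b, an endoplasmic reticulum channel, 2.28-fold in NF1 against WT (2.03 to 2.58), and the isomerase Fkbp14, 2.13-fold in PKO-NF1 against PKO (1.96 to 2.33). With the trends removed Tmem38b was at 0.75 and Fkbp14 at 0.54, neither called, and the lower calls of Adamts14 in PKO-NF1 and of Leprel1 in NF1 against WT were lost as well. Lox, Tll1 and P4ha3 kept the calls given here, as did Leprel1 in PKO against WT. Loxl1 was then called higher in PKO than WT (1.06) and P4ha3 higher in PKO-NF1 than PKO.

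Of 12 collagen receptor genes 11 were measured. In NF1 against WT and in PKO-NF1 against PKO 1 was higher and 2 lower, and in each P2ry14 pair 0 were higher and 1 lower. The shares of all genes lower were 6.09% and 9.95% in the Nf1 pairs and 5.11% and 14% in the P2ry14 pairs, and those higher ran from 5.11% to 10.6%, so each count lies within 2 genes of its share. Itgb1, the common integrin chain, was at 346 to 533 CPM and was not called in any pair, nor was Ddr2, the fibroblast collagen receptor kinase, at 142 to 225 CPM. Ddr1, its epithelial and glial relative, was at 96.2 CPM for WT, 68.0 for PKO, 35.7 for NF1 and 31.1 for PKO-NF1, 2.70-fold lower in NF1 than WT (2.47 to 2.95), and in PKO-NF1 it was 2.19-fold below PKO (1.97 to 2.43). Removing the trends brought Ddr1 to −0.84 and −0.46 in these pairs, called in neither. Lair1, an inhibitory receptor of leukocytes, went the other way, at 8.70, 8.58, 20.9 and 22.2 CPM, and was called higher in both Nf1 pairs with and without the trends. For these 2 receptors both Nf1-mutant libraries lay apart from both others, and how many of all genes did so was not counted. Macrophage markers summed to 1402 CPM for WT, 2244 for PKO, 1756 for NF1 and 3379 for PKO-NF1, with 1 of 8 higher in each Nf1 pair, where 10.6% and 5.11% of all genes were, and their part in the Lair1 values was not tested.

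Gpr56, now called Adgrg1, a receptor for type III collagen, was 3.14-fold lower in NF1 than WT (2.70 to 3.66), at 12.1 against 37.9 CPM. Itga11, an integrin chain for fibrillar collagen, was 3.21-fold lower in PKO-NF1 than PKO (2.52 to 4.13). Itga10, an integrin chain known from cartilage, was at 17.2 CPM for WT, 2.88 for PKO, 15.0 for NF1 and 4.63 for PKO-NF1. It was 5.99-fold lower in PKO than WT (4.43 to 8.23), and in PKO-NF1 it was 3.25-fold below NF1 (2.51 to 4.23), the same pairs in which Col24a1 and Col27a1 were lower. The lower calls of Gpr56, Itga11 and Itga10 held with the trends removed, and Itga10 was then also called higher in PKO-NF1 than PKO (1.26).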

How the data were processed

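Whole-number counts per gene symbol were deposited by the authors as 1 table, used without conversion and with every column. Per the submitters' processing notes, the tools were featureCounts 1.5.2, HISAT2 2.0.5 and FastQC 0.11.7 and the build was mm10. Libraries were made with an Illumina TruSeq RNA kit from 1 ug of total RNA, per the labels' protocols. No source used here gives the annotation, the strand setting or the treatment of multi-mapped reads.

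Counts were scaled with edgeR 4.0.16 TMM factors (1.21, 0.870, 1.03 and 0.925 for WT, PKO, NF1 and PKO-NF1). The 14684 genes that reached 1 CPM in any library were compared by ratios with exact conditional (Clopper-Pearson) 95% intervals. The additive edgeR model used genes at 1 CPM in at least 2 libraries with Benjamini-Hochberg adjustment, and DESeq2 1.42.0 as an alternative. The additive edgeR model was also run on simulated counts, whose spread was set smaller than the one estimated for these libraries. Length, GC and coordinates came from GENCODE M21 (GRCm38), to which 98.4% of symbols matched. Named were all members, the 3 most abundant pathway genes per list and up to 3 called in each direction per pair. The members and lists were chosen with earlier results of these data known. Alternatives were other scalings, filters, a 1.5-fold threshold, trend removal, other models and the longest transcript length.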

Additional observations from a re-analysis of the deposited data

How the results depend on the processing

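With 1 library per genotype, nothing could be left out and no difference has a spread between animals. No paired analysis was possible because each genotype has 1 library and the labels share only that number. DESeq2 size factors, and TMM factors without muscle genes, changed none of the calls over 168 member ratios. Scaling by total counts shifted the median log2 ratio of all genes to −0.22 in NF1 vs WT, 0.07 in PKO-NF1 vs PKO, −0.53 in PKO vs WT and −0.17 in PKO-NF1 vs NF1. In that order, the share of higher among all called genes went from 63.5% to 41.3%, 33.9% to 44.6%, 66.7% to 21.98% and 35.8% to 22.6%. It gave 12 members lower in PKO vs WT, where 2705 of 14661 genes were, and 0 higher in PKO-NF1 vs NF1, where 765 of 14684 were.

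In NF1 vs WT, members higher were 0 with a 5 CPM filter and 4 with trends removed, and members lower were 12 at 1.5-fold and 2 with trends removed. Of all genes, 1178 of 12504 were higher with that filter and 2391 of 14682 lower at 1.5-fold. With trends removed 7.75% were higher and 4.34% lower. In PKO-NF1 vs PKO, members higher were 2 at 1.5-fold and 2 with trends removed, and members lower 1 with trends removed. Of all genes, 2252 of 14638 were higher at 1.5-fold, and 3.26% were higher and 4.51% lower with trends removed. In PKO vs WT, members higher were 1 without an expression filter, 2 at 1.5-fold and 3 with trends removed. Members lower were 11 at 1.5-fold and 2 with trends removed. Of all genes, 1606 of 17766 were higher without the filter. At 1.5-fold 2404 of 14661 were higher and 2176 lower, and with trends removed 5.56% and 5.01%. In PKO-NF1 vs NF1, members higher were 2 at 1.5-fold and 7 with trends removed, and members lower 8 with a 5 CPM filter and 5 with trends removed. Of all genes, 2894 of 14684 were higher at 1.5-fold and 1577 of 12505 lower with that filter. With trends removed 5.36% were higher and 10.4% lower. Col4a2 in PKO-NF1 vs PKO went from −1.02 to 0.0712 with trends removed. Removing the trends took the share of higher calls among all genes to 52.6% in PKO vs WT, and the 1.5-fold threshold took it to 52.5% there and 54.5% in NF1 vs WT.

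For the Nf1 term, genes at an adjusted p under 0.05 were 39 without a filter and 282 with DESeq2, and members were 2 with DESeq2. Members lower at an unadjusted p under 0.05 were 4 with 1 genotype term, where 681 of 14088 genes were. For the P2ry14 term, genes were 88 without a filter, 723 with DESeq2 and 0 with 1 genotype term. Members were 2 without a filter and 6 with DESeq2, which put 2 members and 1347 of 14088 genes higher at an unadjusted p under 0.05. The cause of these changes was not tested. Members with few counts (Col9a1, Col13a1, Col17a1, Col19a1, Col22a1, Col6a4) are limited by depth.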

Other observations

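Further chain ratios per base of exon were examined after their values had been seen. Col11a1 to Col11a2, the chains of type XI collagen, was 1.78 for WT (95% interval 1.46 to 2.20), 3.09 for PKO (2.30 to 4.23), 1.68 for NF1 (1.40 to 2.03) and 5.80 for PKO-NF1 (4.14 to 8.36). Both P2RY14-/- libraries were above both others, with intervals that did not overlap theirs. Col11a1 transcripts have 48.0% GC and those of Col11a2 62.9%.

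Col5a3 to Col5a1 was 1.85 for WT and 1.81 for NF1, against 1.26 for PKO and 0.808 for PKO-NF1. The transcripts of this pair are closer in GC, at 61.6% and 58.0%. Col9a2 to Col9a3 was 10.9 for WT and 11.2 for PKO, against 19.7 for NF1 (15.1 to 26.3) and 24.9 for PKO-NF1 (17.0 to 37.8), from at most 5.94 CPM of Col9a3. Col4a5 to Col4a6, on chromosome X, had overlapping intervals in all 4 libraries, with ratios from 9.59 to 11.8.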
